A study of Mus musculus with 18 samples.

Results

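The genes described here are 10 chromatin regulators with roles in oligodendrocyte differentiation: the histone deacetylases Hdac1, Hdac2, Hdac3 and Hdac11, the deacetylase Sirt2, the Polycomb genes Ezh2 and Eed, and the remodelers Chd7, Chd8 and Smarca4. They were taken by gene name from a table of RNA abundance, and the 10 were among 38046 genes in it. All 10 passed the filter on low values that left 12894 genes for testing, and no library had any of them at 0. RNA was sequenced from 18 libraries of mouse oligodendrocyte progenitor cells (OPCs), kept as clonal lines that were derived from neural stem cells in primary culture. The labels name 3 clones of each genotype, D7, D3, E8 (control) and 3F, D6, 7F (Thap1 null), and each was sampled at 3 stages, which gives 6 groups of 3 libraries. At day 0 (OPC) both genotypes were in OPC growth medium with the mitogen PDGF-AA. At days 2 and 4 (DIV2 and DIV4) both were in oligodendrocyte differentiation medium with the thyroid hormone T3. THAP1 is a zinc-finger transcription factor. The labels do not give how Thap1 was inactivated, nor whether the clones came from separate animals. Each line is a clone, so a difference between genotypes also carries differences between lines. The limma p-values rest on the spread among the libraries of a group, each from a different clone, pooled over the 6 groups. They do not use that each clone gave 3 libraries.

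OPCs divide until they leave the cell cycle and switch on the genes of myelin, and this switch is accompanied by a reorganisation of chromatin. Class I histone deacetylases remove acetyl groups and work inside large corepressor complexes. Polycomb repressive complex 2 (PRC2), with EZH2 or EZH1 as its methyltransferase and EED as a core subunit, places the repressive H3K27 methylation mark. SMARCA4 (BRG1) is an ATPase of the BAF remodeling complex, CHD7 and CHD8 are ATP-dependent remodelers, and SIRT2 is a mainly cytoplasmic deacetylase that is abundant in oligodendrocytes and in myelin.

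The values are TPM (a transcript abundance that allows for transcript length and sums to the same total in every library), added up over the transcripts of each gene. In the 3 control OPC libraries, 3 noncoding features, Gm26924, Gm15662 and mmu-mir-6236, took 64.8% to 88.0% of the deposited total. They took 34.8% in null clone D6 at the OPC stage and at most 3.17% in the other 14 libraries. Each library was therefore divided by its median-of-ratios factor (0.136 to 0.315 in control OPC libraries, 0.715 to 2.04 in the others), which assumes that most genes do not change. All levels below are such rescaled TPM, and all changes are on the scale log2(rescaled TPM + 1). On the deposited values, without that step, 81.0% of all genes tested were called different between null and control OPCs and 99.6% of those were higher in null, against 10.6% called and 53.7% of them higher after rescaling (37.0% with quantile normalization). Directions against the OPC stage given here therefore hold for the rescaled values. Thap1 in protein-coding transcripts was 3.50 to 4.46 in control and 0.499 to 0.768 in null OPCs, 1.89 to 2.77 and 0.338 to 0.684 at DIV2, and 2.29 to 3.77 and 0.196 to 0.754 at DIV4, with no overlap at any stage. Summed over all its transcripts, Thap1 was instead higher in null OPCs, with means of 5.85 and 10.4 (0.77, SE 0.22, limma adjusted p 0.036).

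Markers of the labelled lineage were present. The summed level of 5 OPC markers was 342 to 709 in the 6 OPC libraries, and that of 7 oligodendrocyte markers was 609 to 7714 in the 12 differentiated libraries, against 41.6 to 443 before. All 5 microglial markers were under 1 in both OPC groups and the sum was at most 4.63 in any library, and 5 mesenchymal and 3 endothelial markers summed to at most 1.06 and 3.75. Astrocyte markers summed to 2.24 to 277 at DIV4 and to at most 13.3 at the OPC stage, with Gja1 under 1 in all libraries. Neuron markers summed to 6.48 to 88.9, with Rbfox3, Snap25, Syt1 and Stmn2 all under 1 at DIV2 and DIV4. The control D3 library at the OPC stage stood apart, with a cell-cycle sum of 61.5 against 497 to 659 in the other 5 OPC libraries and the highest oligodendrocyte sum of the 6. The control D7 library at DIV4 also stood apart, with an oligodendrocyte sum of 7714 against 609 to 1469 in the other 5. In bulk RNA, fewer cells of a type and less RNA per cell cannot be told apart.

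**Figure D1:**
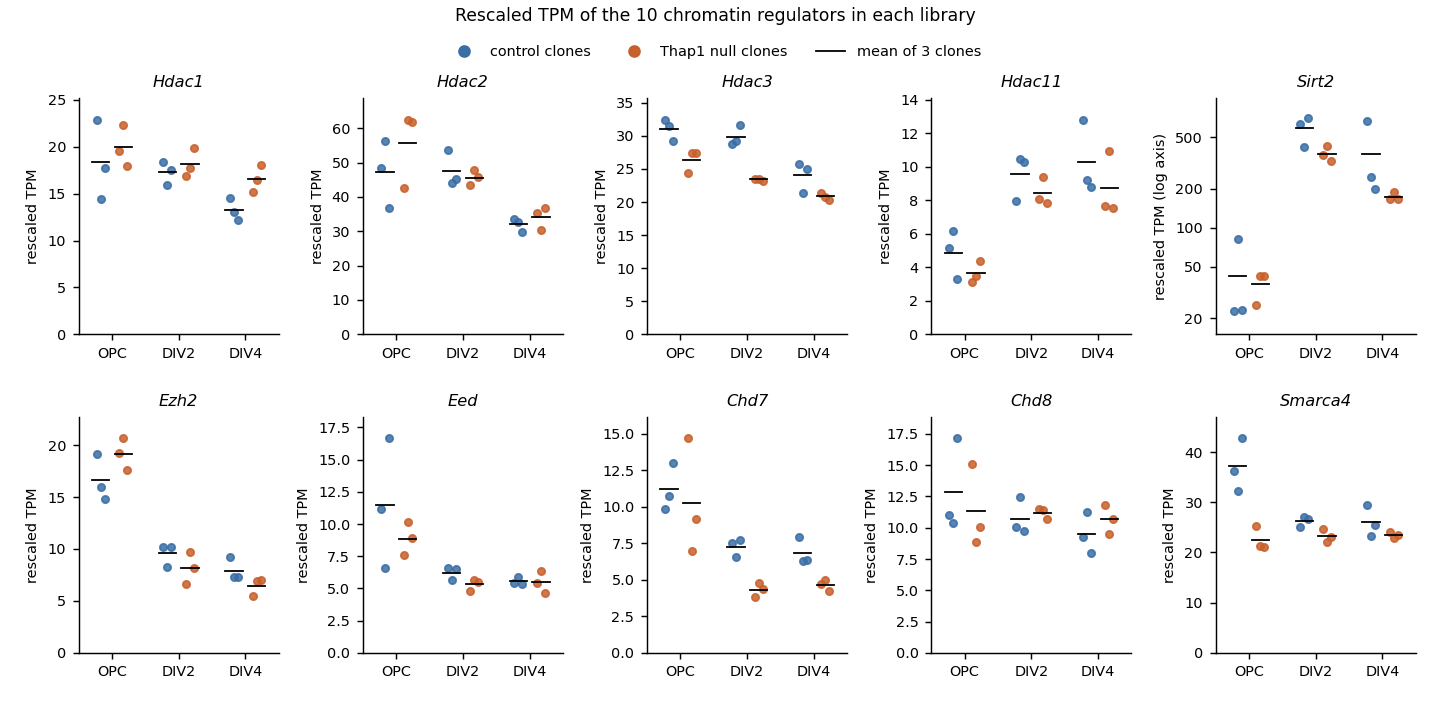
Rescaled TPM (y axis, log axis for Sirt2 only) of the 10 chromatin regulators at the 3 stages (x axis), with 1 point per library (blue control clones, orange Thap1 null clones) and a black line at the mean of 3 clones. Sirt2 went from 22.7 to 81.4 at the OPC stage to 166 or more at DIV2 and DIV4, while Ezh2 went from 14.8 or more to 10.2 or less.

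With differentiation the set divided by direction. Sirt2 and Hdac11 rose in both genotypes at both later stages, and no other member did. Ezh2, Eed and Chd7 fell in both genotypes at both stages, Hdac2 and Hdac3 fell in both genotypes at DIV4, Smarca4 fell in control clones, Hdac1 fell in control clones at DIV4, and Chd8 passed no test. In protein-coding transcripts only, the Eed changes in control clones (-0.21 at DIV2 and -0.31 at DIV4) were not called. Calls are limma tests on all 18 libraries with Benjamini-Hochberg adjustment over all 12894 genes and a threshold of 0.05. In control clones, 6 of 10 members were called at DIV2 against OPC (33.4% of all genes), 2 higher (18.8% of all genes) and 4 lower (14.6%). At DIV4 against OPC, 9 of 10 were called (30.5% of all genes), 2 higher (16.4%) and 7 lower (14.1%). In null clones, 5 of 10 were called at DIV2 (26.5% of all genes), 2 higher (14.4%) and 3 lower (12.1%), and 7 of 10 at DIV4 (32.1%), 2 higher (16.8%) and 5 lower (15.3%). The median change of the 10 members at DIV4 was -0.46 in control and -0.29 in null clones, beside 0.07 and 0.02 over all genes tested. Without clone E8 the control counts were 2 at DIV2 (19.9% of all genes) and 5 at DIV4 (22.9%). The null count at DIV4 was 4 without D6 (17.6% of all genes) and 4 without 7F (16.0%). The 4 comparisons use the same OPC libraries within a genotype, so they are not independent of each other. Between DIV2 and DIV4, limma called none of the 10 in control clones (0.225% of all genes) and none in null clones (1.68% of all genes). In control clones 3 members, Hdac1, Hdac2 and Hdac3, had an unadjusted p under 0.05, as had 1370 of all 12894 genes. In null clones Hdac2 and Sirt2 had one, as had 2075 of all genes.

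**Figure D2:**
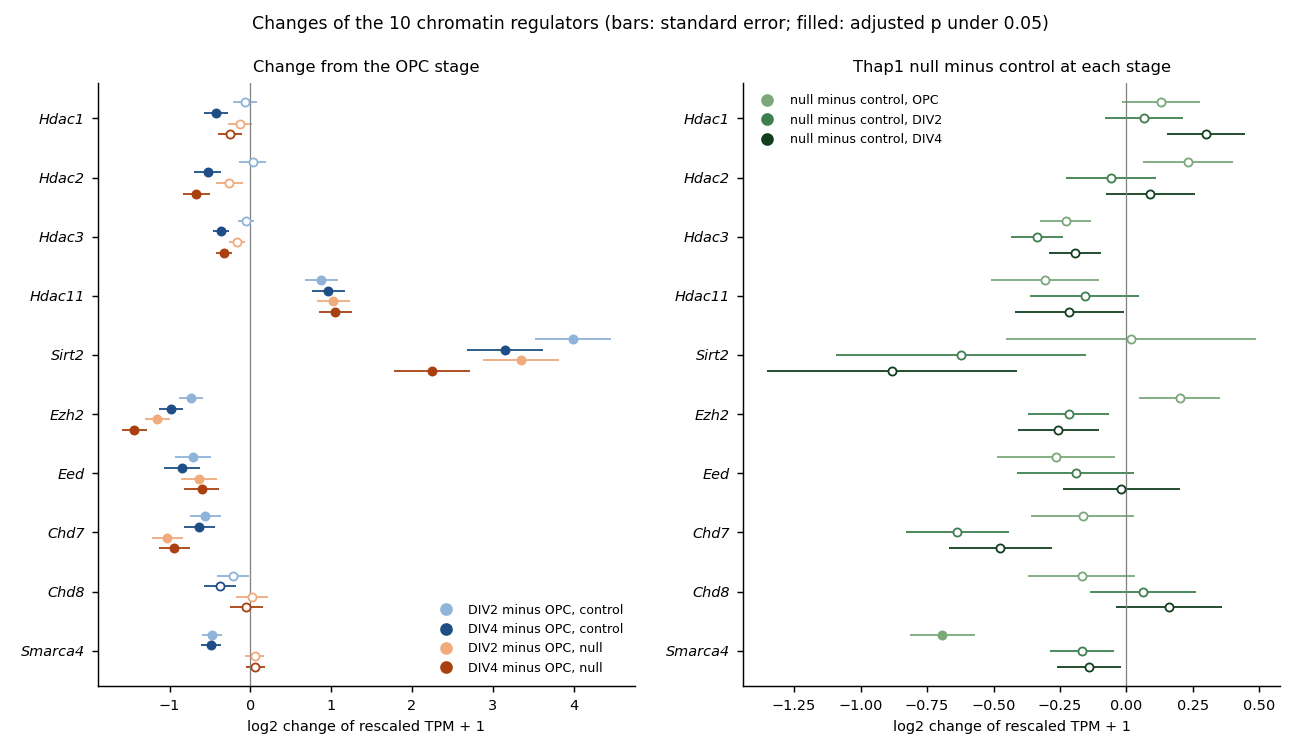
Log2 change of rescaled TPM + 1 (x axis) of each of the 10 members, from the OPC stage (left) and between Thap1 null and control at each stage (right). Bars are standard errors from the limma fit and filled points have an adjusted p under 0.05. Sirt2 lies farthest to the right of 0 and Ezh2 farthest to the left in the left panel, and in the right panel only Smarca4 at the OPC stage is filled.

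Promoter sequences (RefSeq, GRCm38.p6, 250 bases before to 50 after the start site) were at hand for 7 of the 10 genes, and for Hdac1, Hdac3 and Chd7 none was used. They were searched on both strands for TNNGGGCA (a THAP1 core, in 13.9% of 32851 promoters of this length), TTTGGCGC or TTTCCCGC (E2F, in 1.56%), CTGGCAC (MYRF, in 5.01%) and ACAAAG (SOX, in 18.7%). The motifs were searched separately, and the 2 matches found do not overlap. Shown are the gene that fell most, the gene that rose most and the gene called between genotypes, with matches in capitals. Ezh2 (chr6:47594981-47595280, minus strand) holds an E2F match at bases 4 to 11 after the start site and a SOX match 231 to 226 bases before it. Sirt2 (chr7:28766502-28766801, plus strand) and Smarca4 (chr9:21615919-21616218, plus strand) hold no match, nor do the windows of Hdac2, Hdac11, Eed and Chd8. A match is a stretch of letters and not a shown binding site.
Ezh2: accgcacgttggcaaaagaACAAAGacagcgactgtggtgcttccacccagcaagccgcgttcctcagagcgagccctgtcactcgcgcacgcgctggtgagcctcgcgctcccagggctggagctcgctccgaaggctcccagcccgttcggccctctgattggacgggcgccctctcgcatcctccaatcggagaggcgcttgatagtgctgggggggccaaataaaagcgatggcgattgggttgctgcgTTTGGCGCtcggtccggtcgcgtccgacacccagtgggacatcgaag
Sirt2: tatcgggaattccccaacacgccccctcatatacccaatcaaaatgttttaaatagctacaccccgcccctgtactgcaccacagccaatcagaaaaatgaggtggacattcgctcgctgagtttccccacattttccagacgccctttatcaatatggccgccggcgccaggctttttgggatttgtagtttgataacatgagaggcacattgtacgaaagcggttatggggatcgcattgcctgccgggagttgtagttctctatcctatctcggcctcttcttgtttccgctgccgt
Smarca4: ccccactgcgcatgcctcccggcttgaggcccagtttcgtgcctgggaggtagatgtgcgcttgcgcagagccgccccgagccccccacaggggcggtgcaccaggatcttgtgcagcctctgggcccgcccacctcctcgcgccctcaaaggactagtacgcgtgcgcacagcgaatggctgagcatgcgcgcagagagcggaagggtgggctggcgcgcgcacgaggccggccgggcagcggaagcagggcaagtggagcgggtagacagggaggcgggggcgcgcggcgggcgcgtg

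Sirt2 (ENSMUSG00000015149, GRCm38 chr7:28766735-28788661, plus strand) had the widest range of the 10. In the control clones (D7, D3, E8) it was 22.7, 81.4 and 23.2 at the OPC stage, 634, 419 and 709.5 at DIV2, and 669, 246 and 199.6 at DIV4. In the null clones (3F, D6, 7F) it was 25.1, 42.6 and 42.1, then 366, 428 and 329, then 166, 189 and 166. No differentiated library overlapped the OPC libraries, and D3, the OPC library with few cell-cycle and more oligodendrocyte transcripts, had the highest OPC level. The log2 change from OPC to DIV2 was 3.99 in control clones (SE 0.47, limma adjusted p 5.26e-05, 15.9-fold on the shifted scale) and 3.35 in null clones (SE 0.47, adjusted p 2.19e-04). At DIV4 it was 3.15 in control (adjusted p 3.58e-04) and 2.25 in null clones (adjusted p 2.15e-03, limma), and each of the 6 clones rose at both stages. Without D3 at the OPC stage the control DIV2 change was 4.58 and the DIV4 change 3.74. Sirt2 made up 10.4% to 30.6% of the summed level of the 10 genes in OPC libraries and 55.5% to 81.9% in differentiated ones. These shares count all transcripts of each gene, also those not classed as protein-coding. The Sirt2 levels are a description of abundance per length and not of the protein.

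At DIV4 the 3 null clones (166 to 189) lay below the 3 control clones (199.6 to 669) for Sirt2 summed over all its transcripts. In protein-coding transcripts only, the groups overlapped at DIV4, with 19.3 to 23.3 in null and 22.3 to 62.3 in control clones. Over all transcripts the difference at DIV4 was -0.88 on the log2 scale (SE 0.47) and was not called by limma (adjusted p 0.32). It was -0.62 at DIV2 (adjusted p 0.61), where the ranges overlapped. The control range at DIV4 rested on clone D7, the library with the high oligodendrocyte sum: without that library the difference was -0.35. The same library had the lowest astrocyte sum at DIV4 (2.24 against 89.4 to 277 in the other 5), and the part of cell composition in the difference was not tested. The genes most like Sirt2 over the 18 libraries were Enpp6 (Pearson r 0.983 of the log2 levels), a marker of newly formed oligodendrocytes, and Slc30a9 (r 0.980), chosen among 8184 genes as the 2 highest. All points share the stages and libraries, so r describes only how the levels ran in parallel.

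Most Sirt2 RNA was assigned to a transcript that the annotation does not class as protein-coding. ENSMUST00000122915, a processed transcript of 15 exons and 1828 bases (GRCm38 chr7:28766735-28788660, plus strand), held 66.9% of the gene's TPM in control OPCs, 77.0% at DIV2 and 80.2% at DIV4, and 66.4%, 78.8% and 80.3% in null clones. The 2 protein-coding transcripts together held 27.6% ± 15.6 (SD, n = 3) in control OPCs, 13.8% ± 0.364 at DIV2 and 11.2% ± 2.10 at DIV4, and 19.7% ± 4.02, 13.5% ± 1.29 and 12.1% ± 0.276 in null clones. Counting those transcripts only, Sirt2 rose at both stages in both genotypes, by 1.42 to 2.96 (limma). Over all members and stages, none of 30 comparisons of the protein-coding share between genotypes had an adjusted p under 0.6 (two-sided exact permutation tests). The smallest p that 3 against 3 clones can give is 0.1, so none could pass, and these tests cannot show that the shares were equal. In 5 of the 30 the p was 0.1 and the groups did not overlap: Hdac1, Hdac2 and Ezh2 at DIV4, Hdac3 in OPCs and Hdac11 at DIV2. How often this happens over all genes was not computed, so the count is not read as a result about these genes. How the quantification divides reads between transcripts that share exons was not tested.

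**Figure D3:**
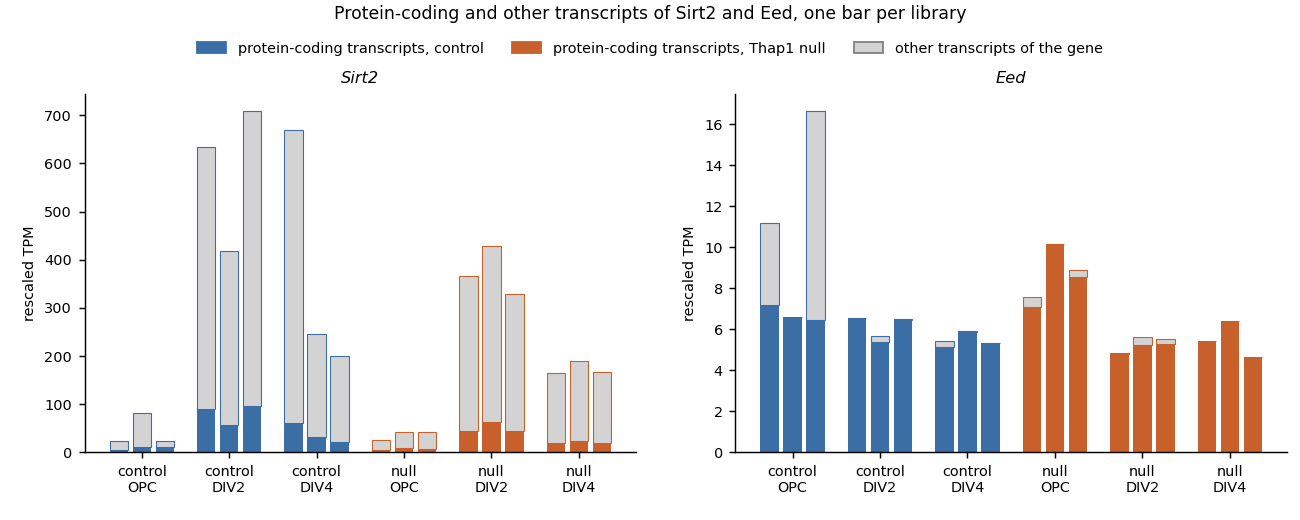
Rescaled TPM (y axis) of Sirt2 (left) and Eed (right), 1 bar per library in the clone order D7, D3, E8 for control and 3F, D6, 7F for null. The coloured base of a bar is the part in protein-coding transcripts and grey is the rest, which is most of Sirt2 in every group and is large for Eed only in control D7 and E8 at the OPC stage.

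Hdac11 (ENSMUSG00000034245, GRCm38 chr6:91156665-91174692, plus strand), the sole class IV deacetylase, was the lowest member at the OPC stage and rose in both genotypes. In the control clones (D7, D3, E8) Hdac11 was 5.13, 6.14 and 3.27 at the OPC stage, 7.94, 10.5 and 10.2 at DIV2, and 12.8, 9.22 and 8.78 at DIV4. In the null clones (3F, D6, 7F) it was 3.10, 3.47 and 4.39, then 8.07, 9.36 and 7.85, then 7.64, 10.96 and 7.54. All 12 differentiated libraries lay above all 6 OPC libraries. The log2 changes from OPC were 0.88 and 0.96 in control and 1.02 and 1.05 in null clones, each with SE 0.20, and limma adjusted p ran from 1.30e-03 to 4.84e-03. Without clone E8, whose OPC level was the lowest of the controls, the control DIV2 change was 0.61 and was not called (limma adjusted p 0.071). Null minus control was -0.31, -0.16 and -0.21 at the 3 stages with overlapping ranges, and none was called. Hdac11 ran in parallel with Sirt2 (r 0.897 over 18 libraries), and most closely with Prnp (r 0.945), the prion protein gene, and Ctsa (r 0.944), a lysosomal cathepsin.

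The class I deacetylases Hdac1 (chr4:129516104-129542713, minus strand), Hdac2 (chr10:36974544-37001889, plus strand) and Hdac3 (chr18:37935844-37955016, minus strand) had smaller changes that were called at DIV4 only. Hdac2 was the highest member of the set in control OPCs (mean 47.2) and Hdac3 (31.1) and Hdac1 (18.4) were lower. Hdac2 was 48.5, 56.4 and 36.9 in control OPC clones and 33.5, 32.8 and 29.7 at DIV4, without overlap. It was 42.7, 62.5 and 61.7 in null OPC clones and 35.4, 30.4 and 36.8 at DIV4, again without overlap. The change at DIV4 was -0.53 in control (SE 0.17, limma adjusted p 0.028) and -0.67 in null clones (SE 0.17, adjusted p 7.28e-03). The control call was lost without D7 (-0.53), D3 (-0.41), D3 at the OPC stage alone (-0.39) or 7F (-0.53), and the null call without D6 (-0.50) or 7F (-0.64). At DIV2 the changes were 0.03 and -0.26 and were not called.

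Hdac3, the catalytic subunit of the NCoR and SMRT corepressors, fell by 0.36 in control (SE 0.10, limma adjusted p 0.013) and by 0.32 in null clones (adjusted p 0.020) at DIV4. Every null clone lay below every control clone at every stage. The ranges were 24.4 to 27.4 against 29.3 to 32.5 in OPCs, 23.2 to 23.5 against 28.8 to 31.6 at DIV2, and 20.3 to 21.3 against 21.4 to 25.8 at DIV4, where the nearest clones differed by less than 0.1. These differences of -0.23, -0.34 and -0.19 (SE 0.10 each) were not called by limma (adjusted p 0.14, 0.093 and 0.29). With quantile normalization in place of the factors, the OPC difference of -0.32 and the DIV2 difference of -0.33 were called (limma adjusted p 0.0185 and 0.037), and without the filter on low values the DIV2 difference was (-0.34, adjusted p 0.045). The control call at DIV4 was lost without D3 (-0.27), and the null call without 3F (-0.39), D6 (-0.30), D6 at the OPC stage alone (-0.30) or 7F (-0.28).

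Hdac1 is reported as uncertain, because 40.0% of its 31-base words also occur in transcripts of other genes, 34.8% in the pseudogene Gm10093 (level 1.14 to 4.82). For the other 9 members that share was at most 1.65%. Hdac1 was 14.5 to 22.9 in control OPCs and 12.2 to 14.5 at DIV4, a change of -0.42 (SE 0.15, limma adjusted p 0.042). In null clones it was 17.9 to 22.3 and 15.2 to 18.01, a change of -0.25 that was not called. The control call was lost without D7 (-0.32), E8 (-0.38), or any of the null clones (-0.42 each), which enter through the shared spread. Between genotypes, every null clone lay above every control clone at DIV4, a difference of 0.30 that was not called (limma adjusted p 0.27). In OPCs and at DIV2 the differences were 0.13 and 0.07, with overlap, and were not called. Hdac1 was 0.39 of the Hdac2 level in control OPCs and 0.36 in null OPCs, and this ratio overlapped between genotypes at each stage.

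Ezh2 (chr6:47530139-47595341, minus strand) was the member with the lowest adjusted p for a fall in each of the 4 comparisons with the OPC stage. In the control clones (D7, D3, E8) Ezh2 was 19.1, 16.0 and 14.8 at the OPC stage, 10.2, 8.31 and 10.2 at DIV2, and 9.18, 7.30 and 7.30 at DIV4. In the null clones (3F, D6, 7F) it was 19.3, 20.6 and 17.6, then 6.59, 9.70 and 8.16, then 5.45, 6.93 and 7.04. No differentiated library reached the lowest OPC library. In control clones Ezh2 fell by 0.73 at DIV2 (SE 0.15, limma adjusted p 2.30e-03) and by 0.98 at DIV4 (adjusted p 4.53e-04). In null clones it fell by 1.15 (adjusted p 1.45e-04) and by 1.44 (limma adjusted p 1.67e-05). All 4 calls held without any of the clones or libraries left out. The point estimates of the falls differed by 0.42 and 0.46 (SE 0.22 each), with the null values the larger, a difference that limma did not call for the gene (adjusted p 0.43 and 0.27). For its protein-coding transcript ENSMUST00000081721 alone it was called, as described with the transcripts. The cell-cycle sum moved with Ezh2 in 5 of the 6 clones, from 497 to 659 in OPCs to 41.0 to 90.8 later; in control D3 it was 61.5, 56.9 and 60.6 while Ezh2 went from 16.0 to 8.31 and 7.30. The part of cell-cycle state in this fall was not tested.

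Within PRC2, Ezh1 was higher in null than in control clones after differentiation while Ezh2 was not called. Ezh1, the alternative methyltransferase that is typical of non-dividing cells, was 2.34, 2.37 and 2.07 in control and 4.90, 3.93 and 4.37 in null clones at DIV2. At DIV4 it was 3.72, 3.04 and 3.06 in control and 6.65, 5.20 and 4.91 in null clones. Ezh1 was higher in null by 0.72 at DIV2 (SE 0.15, limma adjusted p 0.0147) and by 0.62 at DIV4 (adjusted p 0.027), without overlap, and by 0.21 at the OPC stage, which was not called. Without D3, E8, 3F or 7F the DIV2 call was lost (0.66 to 0.75), and without any clone but D7 the DIV4 call was lost (0.51 to 0.69). The ratio of Ezh2 to Ezh1 was 3.50 to 4.91 in control and 1.34 to 2.47 in null clones at DIV2, and 2.39 to 2.47 against 0.820 to 1.43 at DIV4, so the ranges did not overlap. Ezh1 was higher in null clones at both stages on the deposited TPM also (0.64 and 0.49). Null minus control of the log2 ratio of Ezh2 to Ezh1 was -1.199 and -1.06, and -1.56 and -1.48 in protein-coding transcripts only. The two-sided exact permutation p was 0.1, the smallest that 3 against 3 clones can give, and 0.3 after adjustment over 15 ratio tests. At the OPC stage the ratio was 5.93 in control and 5.71 in null clones and overlapped. A ratio shows unequal levels, not which gene differed.

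Eed (chr7:89954654-89980983, minus strand) fell in both genotypes, but in control clones the fall was not called in protein-coding transcripts alone. In the control clones (D7, D3, E8) it was 11.2, 6.62 and 16.6 at the OPC stage, against 5.33 to 6.55 in the 6 differentiated control libraries. In null clones it was 7.57, 10.2 and 8.88 in OPCs and 4.66 to 6.39 later. limma called a fall in both genotypes at both stages, of 0.71 and 0.85 in control clones (adjusted p 0.024 and 0.0105) and of 0.63 and 0.60 in null clones (adjusted p 0.046 and 0.049). ENSMUST00000157001, a processed transcript of 454 bases in 2 exons (GRCm38 chr7:89976744-89980559, minus strand), was 3.98, 0.018 and 10.2 in the control OPC clones and averaged at most 0.275 in the other 5 groups. In protein-coding transcripts only, the control changes were -0.21 and -0.31 and were not called (limma adjusted p 0.22 and 0.075), while the null changes of -0.69 and -0.61 were. Control D7 and E8, the OPC libraries with the short transcript, were also among those filled by the 3 noncoding features (74.8% and 88.0%). Over the 18 libraries the genes most like Eed, summed over its transcripts, were Gtf2h4 (r 0.959) and n-R5s112 (r 0.93), the 2 highest of 8184. The origin of the short transcript was not tested. The control calls were also lost without D7 (-0.72 and -0.81) or E8 (-0.44 and -0.53), and at DIV2 without 7F (-0.71). The null calls were lost without D7 (-0.63 and -0.60), 3F (-0.67 and -0.70), D6 (-0.58 and -0.61), D6 at the OPC stage alone (-0.54 and -0.51) or 7F (-0.65 and -0.50), and at DIV4 without D7 at DIV4 alone (-0.60). Null minus control in OPCs was -0.26 and not called, and without D3 it was called (-0.58, limma adjusted p 0.043), which leaves D7 and E8, the libraries with the short transcript, as controls. In protein-coding transcripts only it had the opposite sign (0.27) and was not called (limma adjusted p 0.18).

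Of 8 other PRC2 genes tested (9 listed), 1 was higher and 2 were lower at DIV4 in control clones, and 2 were higher and 2 lower in null clones. Of all genes, 30.5% were called in that comparison in control and 32.1% in null clones, so the control count is near that share. The list's median change was -0.26 and -0.34. Mtf2, a PRC2 accessory subunit, fell in both genotypes, from 8.86 to 12.5 in OPCs to 4.59 to 6.46 at DIV4 in control clones (-0.89, limma adjusted p 4.50e-04) and from 11.2 to 11.95 to 4.76 to 5.88 in null clones (-1.02, adjusted p 9.79e-05). Jarid2, which recruits PRC2, rose by 0.58 in control and 0.48 in null clones, calls lost without D7 (0.24) or its DIV4 library alone (0.36) and without any of 3F, D6 or 7F, or D6 at the OPC stage alone (0.42 to 0.55), respectively. Suz12, another core subunit, was not called (-0.34 and -0.36). The Mtf2 calls held without any clone.

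Chd7 (chr4:8690406-8867659, plus strand), a partner of SOX10 at oligodendrocyte genes, fell with differentiation. In the control clones (D7, D3, E8) Chd7 was 9.89, 10.8 and 12.98 in OPCs, 7.51, 6.59 and 7.71 at DIV2, and 7.97, 6.31 and 6.34 at DIV4. In the null clones (3F, D6, 7F) it was 14.7, 6.97 and 9.15, then 3.81, 4.79 and 4.38, then 4.71, 4.97 and 4.27. OPC and later levels did not overlap within either genotype. Chd7 fell by 0.56 and 0.63 in control (SE 0.19, limma adjusted p 0.039 and 0.024) and by 1.03 and 0.94 in null clones (adjusted p 1.51e-03 and 1.97e-03). The null calls held without any clone. The control DIV2 call was lost without D7 (-0.66), D3 (-0.52), D3 at the OPC stage alone (-0.58), E8 (-0.49) or 7F (-0.56), and with clone as a block (-0.56, adjusted p 0.057), and the DIV4 call without D3 (-0.60), E8 (-0.48) or 7F (-0.63).

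After differentiation, Chd7 was lower in every null clone than in any control clone, with 3.81 to 4.79 against 6.59 to 7.71 at DIV2 and 4.27 to 4.97 against 6.31 to 7.97 at DIV4. The differences of -0.64 and -0.47 (SE 0.19) were not called by limma (adjusted p 0.11 and 0.18; unadjusted p 5.21e-03 and 0.028). At the OPC stage the ranges overlapped. The summed OPC markers moved with these differences and did not overlap either, with 87.2 to 136 in null and 152 to 296 in control clones at DIV2 and 100.4 to 144 against 198 to 346 at DIV4. Olig2 is among those 5 markers, and their part in the Chd7 difference was not tested. The ratio of Chd7 to Chd8 within a library was 0.531 to 0.790 in control and 0.330 to 0.418 in null clones at DIV2, and 0.560 to 0.859 against 0.398 to 0.521 at DIV4, without overlap. Both exact permutation tests gave p = 0.1 (two-sided) and 0.3 adjusted over the 15 ratio tests. Over the 18 libraries the genes most like Chd7 were the Notch ligand gene Dll1 (r 0.870) and Olig2 (r 0.867), the lineage transcription factor. Chd8 (chr14:52198151-52257780, minus strand), a related remodeler that binds many active promoters, was 8.01 to 17.1 in control and 8.88 to 15.1 in null libraries, and no change of it was called in any comparison. Its protein-coding share was 64.7% to 74.6% by group.

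**Figure D4:**
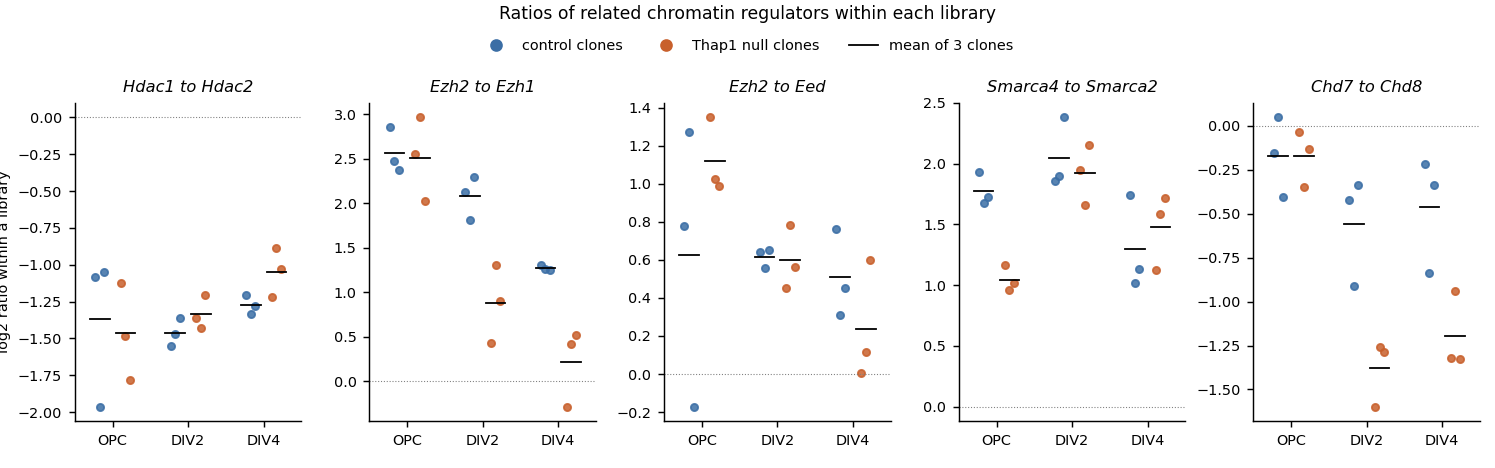
Log2 ratio of a pair of genes within a library (y axis) at each stage (x axis), with 1 point per clone (blue control, orange Thap1 null) and a black line at the mean of 3. Null clones lie below control clones without overlap for Ezh2 to Ezh1 and for Chd7 to Chd8 at DIV2 and DIV4, and for Smarca4 to Smarca2 at the OPC stage.

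Smarca4 (chr9:21616169-21704230, plus strand) was the sole member called between genotypes. Of the 10 members, 1 was called in OPCs (10.6% of all genes) and it was lower in null clones (4.92% of all genes were called lower). Smarca4 was 36.3, 32.3 and 42.7 in the control OPCs (D7, D3, E8) and 25.3, 21.3 and 21.0 in the null OPCs (3F, D6, 7F). The groups did not overlap, and the difference was -0.69 (SE 0.12, limma adjusted p 2.92e-03). Without 7F it was -0.65 and was not called (limma adjusted p 0.056), and it was called without any of the other 5 clones. The members' count was thus 0 without 7F (2.16% of all genes), and it was 2 without D3 (15.7% of all genes), where Eed was also called. At DIV2 levels were 25.1, 27.1 and 26.8 in control and 24.7, 22.1 and 23.1 in null clones, and at DIV4 29.5, 23.3 and 25.5 against 24.1, 22.8 and 23.5. These differences of -0.17 and -0.14 were not called. Control clones fell by 0.47 at DIV2 (SE 0.12, limma adjusted p 8.42e-03) and by 0.49 at DIV4 (adjusted p 8.09e-03). Their later levels of 23.3 to 29.5 stood beside 21.0 to 25.3 in null clones over all 3 stages. Without E8 these falls were 0.38 and 0.37 and were not called.

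The change of Smarca4 in null clones was 0.05 and 0.06, and the test of the difference between the genotypes' changes gave 0.52 at DIV2 and 0.55 at DIV4 (SE 0.17 each, limma adjusted p 0.19 and 0.10). As a gene, no member was called in any of the 3 such tests, in which 0.279%, 2.33% and 0.0233% of all genes were, and only Smarca4 had an unadjusted p under 0.05, in 2 of them. In those 2 tests, to DIV2 and to DIV4 from OPC, 1687 and 2467 of all 12894 genes had one. Without the D3 library at the OPC stage, the DIV4 test was called for Smarca4 (0.64, limma adjusted p 0.034). Smarca2, the alternative BAF ATPase, was 9.54 to 12.9 in control and 10.4 to 11.3 in null OPCs. The ratio of Smarca4 to Smarca2 was 3.20 to 3.81 in control and 1.94 to 2.24 in null OPCs (exact permutation p = 0.1, two-sided, 0.3 adjusted over 15). On the deposited TPM the Smarca4 difference in OPCs had the opposite sign (1.30), and 99.6% of the genes called on that scale were higher in null OPCs. The ratio of Smarca4 to Smarca2 is the same on both scales. In protein-coding transcripts only, the log2 ratio differed by -0.50 in place of -0.73.

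At the level of transcripts, 5 of the members' 31 tested transcripts were called in OPCs between genotypes (11.2% of all 22212 transcripts tested). All 4 Smarca4 transcripts are protein-coding, and 3 of them were lower in null clones. The largest, ENSMUST00000174008, was 22.2 to 29.0 in control and 14.8 to 16.9 in null clones (-0.67, limma adjusted p 7.65e-03). The long Chd7 transcript ENSMUST00000039267 was lower (-0.83, adjusted p 0.017) and the Ezh2 transcript ENSMUST00000081721 was higher in null OPCs (3.24 ± 0.655 against 6.92 ± 0.646, SD, n = 3; 0.91, limma adjusted p 4.10e-03), although neither gene was called as a sum. That Ezh2 transcript was 1.23 to 1.71 in null and 1.77 to 2.99 in control clones at DIV2, and its change from OPC differed between genotypes by -1.26 to DIV2 (SE 0.24, limma adjusted p 0.035) and by -1.21 to DIV4 (adjusted p 0.022). The change of Smarca4 ENSMUST00000172996 to DIV4 also differed (1.09, SE 0.22, limma adjusted p 0.027), from a mean of 4.97 to 2.57 in control and from 1.98 to 2.82 in null clones. These were 1 and 2 of the 31, beside 0.522% and 1.83% of all transcripts. Between genotypes at DIV4, 1 of the 31 was called (2.92% of all transcripts), the Sirt2 retained-intron transcript ENSMUST00000141077, which held under 1% of the gene's TPM at that stage (a mean of 2.92 in control and 0.736 in null clones, -1.11, limma adjusted p 0.037). At DIV2 none of the 31 was called (1.54% of all transcripts), and 5 had an unadjusted p under 0.05. The share of all transcripts under that unadjusted threshold was not computed. The transcript calls were not recomputed without single clones.

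Several partners of SMARCA4 and of the class I deacetylases were also lower in null OPCs. Of 18 BAF subunit genes tested (20 listed), 5 were lower and none was higher (10.6% of all genes were called and 4.92% were called lower), and the list's median difference was -0.18 beside 0.07 over all genes. Smarcc2, a scaffold subunit, was 18.3, 19.9 and 25.1 in control and 10.4, 10.5 and 9.22 in null OPCs (-0.99, SE 0.12, limma adjusted p 1.73e-04). Dpf1, a subunit of the neuronal form of the complex, was 24.4, 18.3 and 28.1 against 9.001, 12.4 and 7.48 (-1.22, adjusted p 3.15e-03). Neither pair of groups overlapped. Neuron markers, which summed to 6.48 to 11.3 in null and 13.7 to 23.4 in control OPCs, were also lower without overlap, and their part in these differences was not tested. Smarcd1 (-0.56), Smarcd3 (-1.15) and Dpf2 (-0.56) were the others, and each of these calls was lost without E8, without 3F or without 7F, those of Smarcd1 and Dpf2 also without D6, and that of Dpf2 without D6 at the OPC stage alone (-0.63 to -0.45, -1.18 to -0.93 and -0.57 to -0.41). Of 19 genes of class I deacetylase complexes, all tested, 4 were lower and 1 was higher, again beside 10.6% and 4.92% of all genes called and called lower, with a median of -0.26. Mta1, a subunit of the NuRD complex, was 13.2, 9.89 and 16.0 in control and 4.18, 4.44 and 2.59 in null OPCs (-1.57, SE 0.26, limma adjusted p 2.25e-03). Chd4 (-0.57), Mta2 (-0.52) and Rcor1 (-0.75) were lower and Tbl1xr1 (0.34) was higher, and each of these 4 calls was lost without E8, without 7F and without some other clones (-0.54 to -0.46, -0.59 to -0.40, -0.74 to -0.66 and 0.28 to 0.38). Under quantile normalization all 10 of these kept their sign, and on the deposited TPM the 9 lower genes were higher in null OPCs. In protein-coding transcripts only all 10 also kept their sign, but the differences of Smarcd3 and Dpf2 were smaller, at -0.53 and -0.38. At DIV2 and DIV4 no gene of either list was called between genotypes.

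Among NuRD genes, Chd3, a helicase subunit, rose with differentiation. It was 1.56, 2.88 and 3.69 in control OPCs and 39.0, 24.1 and 31.2 at DIV2, and 0.530, 0.858 and 0.520 in null OPCs and 31.9, 27.2 and 29.2 at DIV2. The log2 changes were 3.15 and 4.22 (SE 0.37, limma adjusted p 5.25e-05 and 8.13e-06), and those at DIV4 were 2.91 and 4.46, and all 4 calls held without any clone. Of 11 other deacetylase genes tested (13 listed), 2 were higher and 2 lower at DIV4 in control and 4 were higher in null clones, counts near the 30.5% and 32.1% of all genes called. Hdac5, a class IIa deacetylase, rose in both (1.08, lost without D7 at 0.57, and 1.38). Of 4 other CHD genes tested (5 listed), 1 (Chd1, -0.79, lost without D7 or E8 at -0.72 to -0.49) was called at DIV4 in control and none in null clones.

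Among 11 tested lineage genes (13 listed) that these regulators are known to act on, 3 rose and 3 fell at DIV4 in control clones, where 16.4% of all genes were called higher and 14.1% lower. Myrf, the driver of myelin gene expression, rose by 1.83 and Olig2 fell by 1.13 (limma adjusted p 5.45e-03, lost without D7 at 1.52, and 2.99e-03). In null clones, where 16.8% of all genes were called higher and 15.3% lower, none of the 11 was called higher and 3 fell (Olig2 by 1.23, and Hes5 and Sox11, which were lost without any of the null clones, at -2.74 to -2.05 and -1.03 to -0.79). The list's median change at DIV4 was 0.33 in null and -0.07 in control clones. At DIV2 in null clones 2 of the 11 were called higher and 2 lower (14.4% and 12.1% of all genes). Between genotypes, 1 was called, Tcf7l2 at DIV4, a Wnt effector that works with HDAC1 and HDAC2, with 6.28, 3.75 and 1.87 in control and 1.09, 1.38 and 0.599 in null clones (-1.21, SE 0.28, limma adjusted p 0.025). That call was lost without any clone but E8 and without D7 at DIV4 alone (-1.34 to -0.89).

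At DIV2 and DIV4, limma called none of the 10 members between null and control clones (2.66% and 4.55% of all genes were called), although 1 transcript of Sirt2 was called at DIV4. Unadjusted p was under 0.05 for Hdac3 and Chd7 at DIV2 and for Chd7 at DIV4, and the lowest adjusted values were 0.093 and 0.18. Of all 12894 genes, 1819 at DIV2 and 2612 at DIV4 had an unadjusted p under 0.05. The median difference of the 10 was -0.17, -0.18 and -0.17 at the 3 stages, beside 0.07, 0.00 and 0.00 over all genes. By level, the order in control OPCs was Hdac2, Sirt2, Smarca4, Hdac3, Hdac1, Ezh2, Chd8, Eed, Chd7 and Hdac11, in which only Hdac3 and Hdac1 and the last pair did not overlap with their neighbour. At DIV2 and DIV4 Sirt2 led in both genotypes by these sums, clear of Hdac2 in every clone. In protein-coding transcripts only, Sirt2 was above Hdac2 in every clone at DIV2 but not at DIV4. There Hdac2 was above Sirt2 in every null clone (29.4 to 35.6 against 19.3 to 23.3) and in control E8 (28.6 against 22.3). By the sums over all transcripts, Chd7 was last in null clones and Eed in control clones at DIV2 and DIV4.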

How the data were processed

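Per the labels' protocols, stranded total RNA libraries were made with ribosomal RNA removal. The deposited table gives TPM per transcript for 93666 transcripts, and each column sums to 1000000. The submitters' processing notes list STAR, Picard and mm10, and the quantifier, annotation and filters are not given in the sources used here. TPM keeps no depth, so depth is unknown and precision rests on 3 clones per group. TPM was summed by gene name, after 25 names turned into dates were restored through GENCODE M21 (96.6% of transcripts matched), and divided by median-of-ratios factors from 14689 genes above 0 in every library. Coding-only values used factors of their own from 10372 genes. Genes with a mean deposited TPM of at least 1 were tested on log2(rescaled TPM + 1) with limma 3.58.1 (R 4.3.3) over 18 libraries, with a mean trend. That log2 scale, taken after the deposited TPM were rescaled, understates changes of low genes. The fit, tried first on simulated data, treats libraries as independent, although each clone gave 3. Ratios and shares were compared by exact permutation tests.

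The members, gene lists and tests were chosen with earlier results of these data known. All 10 members are reported, and other genes are named as the largest called rise or fall of a list, as a paralog in a ratio, or as the 2 most correlated. Suz12, Jarid2 and the further called genes of a list, and the promoters and motifs, were chosen after their values were seen. Replicate pairing: the same clone gave the libraries of the 3 stages, and residuals of the same clone correlated at 0.118 on average (-0.016 to 0.414) against -0.059 for different clones.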

Additional observations from a re-analysis of the deposited data

Results flagged for a closer look

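In 3 of 18 BAF subunit genes tested the change from OPC to DIV4 differed between genotypes by limma's test of that difference, in which 2.33% of all genes were called. It was 0.95 for Smarcc2 (limma adjusted p 0.0142), 0.81 for Smarcd1 (adjusted p 0.044) and 1.38 for Dpf1 (adjusted p 0.034), null minus control on the log2 scale. Each was lower in null than in control OPCs and not called between genotypes at DIV4. Smarcc2 and Smarcd1 rose in null clones (0.72 and 0.56) and were not called in control clones (-0.24 and -0.25), and Dpf1 fell in control clones (-1.89) and was not called in null clones (-0.51). Each call was lost without clone E8, 3F, D6 or 7F, and that of Dpf1 also without D7 or its DIV4 library and that of Smarcd1 without D6 at the OPC stage alone (0.82 to 1.03, 0.60 to 0.92 and 1.14 to 1.55 for Smarcc2, Smarcd1 and Dpf1), and on the deposited TPM the signs were reversed (-1.14, -1.13 and -0.72). Of the members' 31 transcripts, the same test called Ezh2 ENSMUST00000081721 (-1.26 to DIV2 and -1.21 to DIV4) and Smarca4 ENSMUST00000172996 (1.09 to DIV4), beside 0.522% and 1.83% of all transcripts.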

How the results depend on the processing

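The scale decided most of what depends on the processing. On the deposited TPM, without rescaling, 10 members were called between null and control OPCs, 10 at DIV2 against OPC in control clones, 2 at DIV2 and 3 at DIV4 against OPC in null clones, and 10 in each test of the genotypes' difference in change from OPC. Of all genes, 81.0%, 83.6%, 17.8%, 22.6%, 72.6% and 73.5% were called in these comparisons, in that order. On that scale 32 of 132 values reversed. Null minus control in OPCs was 1.73 for Hdac3, 1.09 for Hdac11, 1.49 for Eed, 1.61 for Chd7, 1.64 for Chd8 and 1.30 for Smarca4. Control DIV2 minus OPC was 2.35 for Hdac1, 2.47 for Hdac3, 1.64 for Ezh2, 1.56 for Eed, 1.72 for Chd7, 2.12 for Chd8 and 2.08 for Smarca4. Control DIV4 minus OPC was 2.05 for Hdac1, 2.09 for Hdac2, 2.22 for Hdac3, 1.44 for Ezh2, 1.48 for Eed, 1.70 for Chd7, 2.01 for Chd8 and 2.12 for Smarca4, and in null clones Hdac3 was 0.11. The genotypes' difference in change to DIV2 was -1.42 for Hdac11, -1.85 for Eed, -1.74 for Chd8 and -1.64 for Smarca4, and that to DIV4 was -1.87 for Hdac1, -2.11 for Hdac3, -1.48 for Hdac11, -1.69 for Eed, -1.66 for Chd8 and -1.62 for Smarca4. Over all genes the median of null minus control in OPCs was then 1.503 and that of control DIV4 minus OPC 2.01. With quantile normalization, 2 members were called between genotypes in OPCs (12.5% of all genes) and 1 at DIV2 (3.07%), and without a filter 1 at DIV2 (1.01%). Of the genes called at DIV4 against OPC in control clones, 43.1% were higher with quantile normalization and 53.7% without, and of those called for the genotypes' difference in that change 68.8% and 51.0%. Eed lost its null DIV2 call with quantile normalization (-0.62) and both null calls and the control DIV2 call without a filter, as did the control calls of Hdac1 at DIV4 and Chd7 at DIV2, and factors from the genes tested, added after the data were seen, ended that of Eed at DIV4 in null clones (-0.63). A pseudocount of 0.1 changed no call among 132 values. In protein-coding transcripts only, the log2 ratio of Ezh2 to Eed reversed in OPCs (-0.08) and was -0.15 at DIV2, Ezh2 to Ezh1 was -1.56 and -1.48 at DIV2 and DIV4, Hdac1 to Hdac2 was 0.36 at DIV4 and Smarca4 to Smarca2 -0.50 in OPCs, null minus control. Leaving out a clone, or 1 of 3 single libraries chosen after the data were seen, gave 0 to 2 members called between genotypes in OPCs, 2 to 6 at DIV2 and 5 to 9 at DIV4 against OPC in control clones, 4 to 7 at DIV4 in null clones, and 0 to 1 for the genotypes' difference in change to DIV4. Of all genes, 2.16% to 17.4%, 19.9% to 39.4%, 17.3% to 37.4%, 16.0% to 37.3% and 0.0698% to 8.09% were called in these fits, in that order. With the clone as a replicate block (consensus correlation 0.125) the control DIV2 call of Chd7 was lost (-0.56), so that 5 members were called there (37.0% of all genes), and no other member's call changed. Apart from the scale, the cause of these changes was not tested. TPM keeps no read depth, so counting error cannot be given.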
